A study of Mus musculus with 25 samples.

Results

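The genes described here are 10 genes of the epidermal growth factor receptor and Ras-ERK pathway, *Egfr*, *Dusp4*, *Dusp6*, *Spry1*, *Spry2*, *Spry4*, *Spred1*, *Etv4*, *Etv5* and *Areg*, of 48795 genes in the expression tables. They were chosen by name as the receptor, a ligand and the feedback and output genes of this pathway, and all 10 passed the filter on low counts. Sequencing covered 25 samples, 1 library each, from male mice of the inbred strain C57BL/6J, in 5 groups. Untreated mice gave liver on a control diet (nonDEN-L-CD, n = 3) or on a western diet (nonDEN-L-WD, n = 4). Mice given 25 mg/kg of the liver carcinogen diethylnitrosamine (DEN) at 2 weeks of age gave liver on the control diet (DEN-L-CD, n = 4). DEN-injected mice on the western diet gave peritumoral liver (DEN-PT-WD, n = 8) and tumors (DEN-T-WD, n = 6). The diets began at weaning and tissue was taken at 36 to 39 weeks of age. By the study's account, tumors of DEN-injected mice on the control diet could not be dissected apart for their small size, so DEN-L-CD livers may hold small tumors. Every tumor sampled carries both the DEN and the western diet exposure.

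EGFR is a receptor tyrosine kinase that hepatocytes carry at high levels, and amphiregulin, the product of *Areg*, is one of its ligands. The active receptor signals through Ras, Raf, MEK and ERK. ERK activity induces its own brakes, among them the phosphatases DUSP4 and DUSP6, the Sprouty proteins and SPRED1, and it also raises the ETS transcription factors ETV4 and ETV5. Levels of these transcripts are therefore widely read as an output of ERK. DEN-induced mouse liver tumors often carry activating changes in *Hras* or *Braf*, so the question was whether the output genes were higher in tumors. No genotype of the tumors was analysed here.

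The genes lie on 9 chromosomes of GRCm38, with *Egfr* (ENSMUSG00000020122) at chr11:16752203-16918158, plus strand, and *Areg* (ENSMUSG00000029378) at chr5:91139599-91148432, plus strand. *Dusp4* (ENSMUSG00000031530) spans chr8:34807297-34819894, plus strand, and *Etv4* (ENSMUSG00000017724) spans chr11:101769742-101785371, minus strand. The other 6 genes are *Dusp6* (ENSMUSG00000019960), *Spry1* (ENSMUSG00000037211), *Spry2* (ENSMUSG00000022114), *Spry4* (ENSMUSG00000024427), *Spred1* (ENSMUSG00000027351) and *Etv5* (ENSMUSG00000013089). The use of strand in counting is not given in the sources used here. The antisense gene *Egfros* overlaps *Egfr*, and the opposite-strand genes *Gm27369* and *Gm27804* overlap *Spry4*. In GENCODE M21 their transcripts share no 50-base word with those of *Egfr* or *Spry4*. The opposite-strand gene *Gm42922* overlaps *Spry1* and holds 21.8% of the 50-base words of *Spry1* transcripts. Without the strand, reads of that part cannot be told apart. *Gm42922* was counted at 0 to 3 reads per library, against 58 to 248 for *Spry1*. *Etv5* shares 24.5% of its 50-base words with the gene model *Gm4798*, so counting could split its reads between them. The expected counts of *Etv5* were whole numbers in every library, so no fractional split showed in them.

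Promoters of 7 of the 10 genes, matched by symbol in a RefSeq table of build GRCm38.p6, were searched. *Dusp4* and *Etv4* had no match by symbol, and *Spry4* was left out of the search by choice, not for want of a match. The 250 bases before the start are shown for the ligand, the phosphatase with the highest level and the receptor, since they move differently below. Capitals mark matches, on either strand, to CCGGAA (the core of sites of the ETS family that includes ETV4 and ETV5) or TGACGTCA (the cyclic AMP response element). TGANTCA, the AP-1 site, was searched as well.
Areg, chr5:91139349-91139598, plus strand: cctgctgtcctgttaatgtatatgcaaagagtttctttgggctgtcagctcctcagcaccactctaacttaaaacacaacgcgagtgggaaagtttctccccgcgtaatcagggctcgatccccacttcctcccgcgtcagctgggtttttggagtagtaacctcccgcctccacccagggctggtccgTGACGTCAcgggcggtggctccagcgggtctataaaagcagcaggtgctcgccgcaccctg
Dusp6, chr10:99262981-99263230, plus strand: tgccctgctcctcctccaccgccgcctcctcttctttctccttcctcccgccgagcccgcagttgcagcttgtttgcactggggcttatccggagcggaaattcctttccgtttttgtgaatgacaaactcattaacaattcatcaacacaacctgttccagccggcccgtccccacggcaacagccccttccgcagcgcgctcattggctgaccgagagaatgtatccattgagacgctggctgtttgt
Egfr, chr11:16751953-16752202, plus strand: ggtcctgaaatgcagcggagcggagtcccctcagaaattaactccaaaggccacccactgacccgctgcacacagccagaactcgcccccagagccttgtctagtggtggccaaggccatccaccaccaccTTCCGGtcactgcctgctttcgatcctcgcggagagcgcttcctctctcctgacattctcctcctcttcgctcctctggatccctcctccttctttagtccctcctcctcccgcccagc
The *Areg* promoter held TGACGTCA from base -61 to base -54 before the start, a match found in 1.55% of 32851 promoters of the same length. The *Egfr* promoter held CCGGAA on the opposite strand from base -119 to base -114, a match found in 12.03% of promoters. No promoter of the 7 genes searched held TGANTCA, which was found in 6.75% of all promoters. These are matches of letters, and binding was not measured.

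Levels are given as TPM, the share of transcripts scaled to a fixed total per library, which is corrected for transcript length and so can be compared between genes. *Egfr* was the most abundant of the 10 genes, with a mean of 98.1 TPM in DEN-PT-WD, and *Dusp6* followed at 36.8 TPM. *Areg* and *Etv4* were the least abundant, at 0.480 and 0.229 TPM in the same group. In 9 of the 10 genes, all but *Egfr*, DEN-T-WD had the highest mean TPM and DEN-PT-WD the next highest. Liver of untreated mice on the control diet had the lowest mean TPM in 8 of the 10, and the lowest mean normalized count, the scale of the edgeR test, in 7. Most neighbours in these orders overlapped, and tumors stood clear of peritumoral liver in every library for *Dusp4*, *Spred1* and *Etv5* in TPM, and for *Dusp4* and *Etv5* in normalized counts. Positions of single libraries are given in TPM below, with the normalized count where it changes them.

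**Figure D1:**
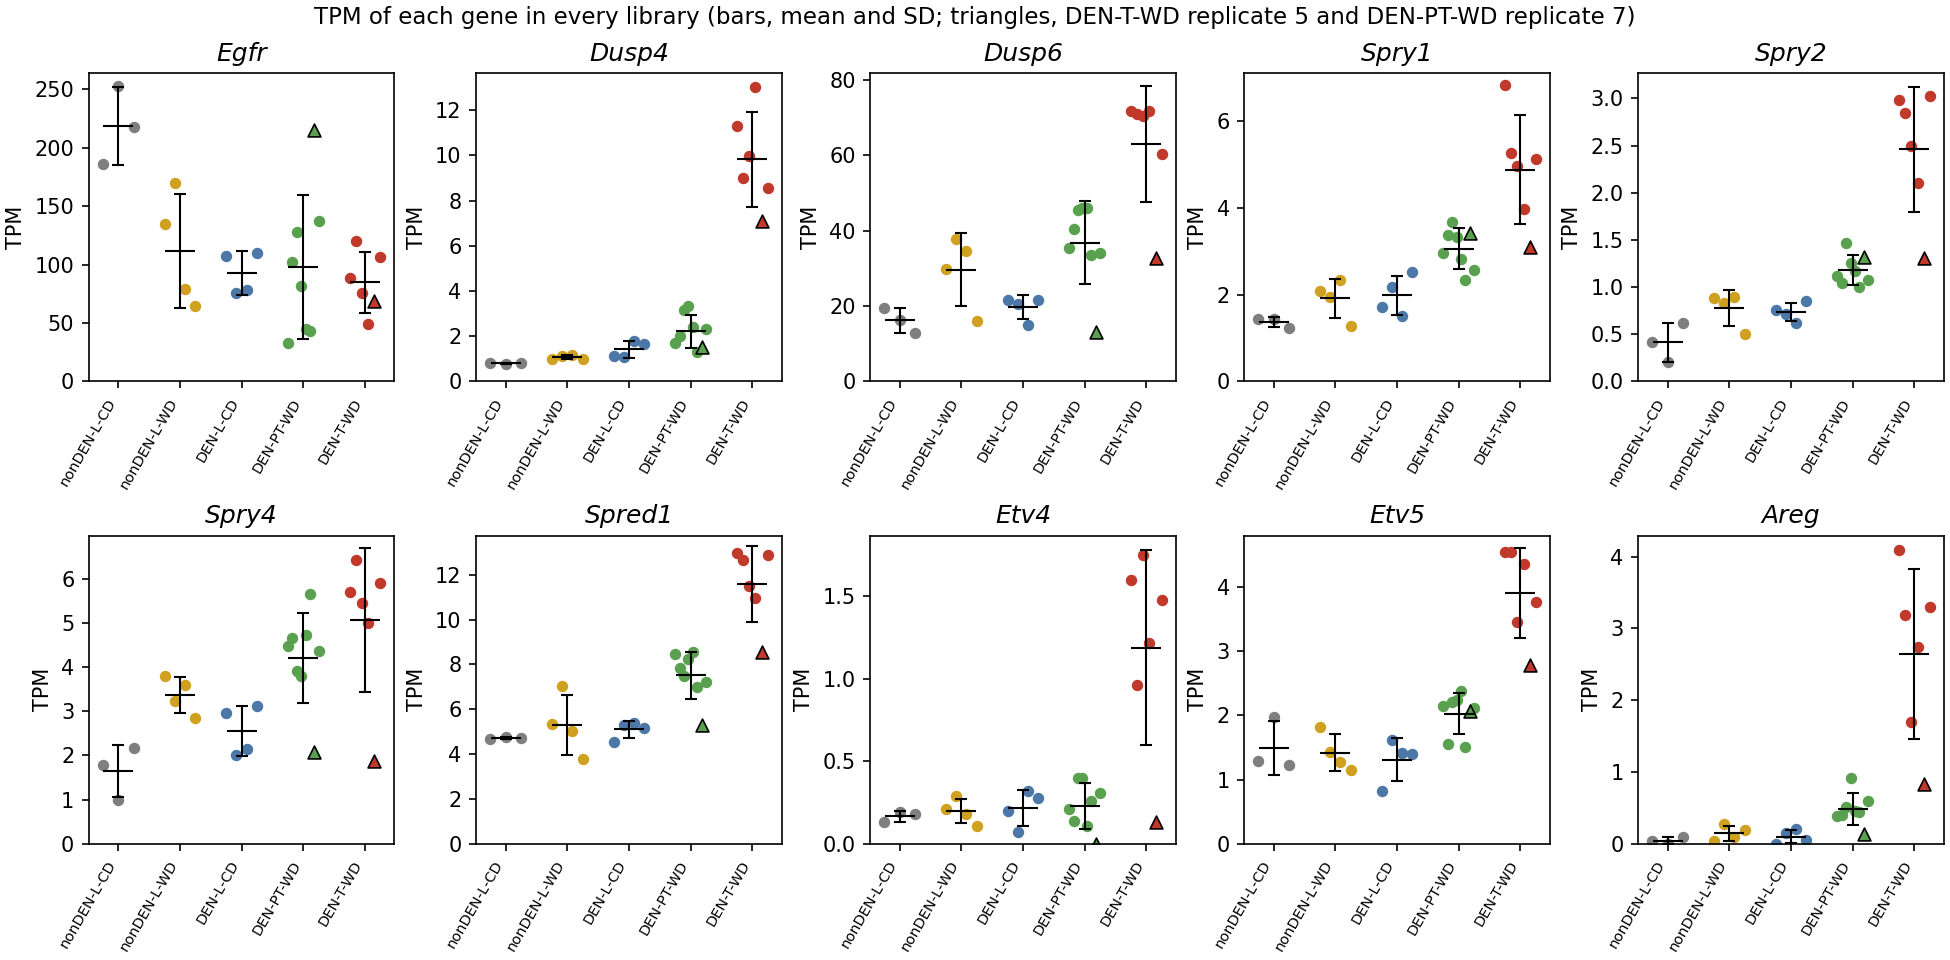
TPM (linear vertical axes from 0) of the 10 genes in each of the 25 libraries, by group, with horizontal bars for the mean and error bars for the SD. Triangles mark DEN-T-WD replicate 5 and DEN-PT-WD replicate 7. The 6 tumors lie above all 8 peritumoral samples for Dusp4, Spred1 and Etv5, and Egfr is highest in nonDEN-L-CD.

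Library totals ranged from 21530083 to 38074411 expected counts. A pair of libraries stood apart. In DEN-T-WD replicate 5, 7 hepatocyte markers summed to 30986 TPM against 108805 to 128351 in the other 5 tumors, and in DEN-PT-WD replicate 7 they summed to 40847 TPM against 53456 to 67891 in the other 7 peritumoral samples. Hepatocyte markers were above 0 in every library. Albumin alone measured 82845 to 99736 TPM in those 5 tumors, and 3 of the 7 markers had a higher mean in tumors than in peritumoral liver. The 6 cholangiocyte markers, all above 0 in every library, summed to 385 to 834 TPM in tumors and 73.9 to 325 TPM in peritumoral liver, with 4 of the 6 higher on average in tumors. *Spp1*, for osteopontin, made up most of that sum, at 644.7 TPM on average in tumors and 149 TPM in peritumoral liver. The other 5 summed to 9.76 and 8.18 TPM on average. Among them *Sox9* averaged 4.23 TPM in tumors and 1.46 TPM in peritumoral liver, whereas the keratins *Krt19* (2.42 and 3.73 TPM) and *Krt7* (0.692 and 1.15 TPM) averaged lower in tumors. In the 3 other groups the sum of all 6 was 32.4 to 68.7 TPM. Sums of 5 macrophage markers overlapped, at 216 to 549 TPM in tumors and 215 to 455 TPM in peritumoral liver, as did those of 4 endothelial, 5 stellate cell and 4 T cell markers. Endothelial sums in the 3 other groups were 39.4 to 64.5 TPM, below the 82.2 to 97.6 TPM of tumors and the 67.1 to 89.8 TPM of peritumoral liver. Macrophage medians there were 153 to 180 TPM, against 348 TPM in tumors and 378 TPM in peritumoral liver, with overlap of single libraries. Stellate cell medians were 147 to 175 TPM, against 226 and 284 TPM, and T cell medians 1.27 to 2.11 TPM, against 2.40 and 2.115 TPM. The 6 exocrine pancreas markers, of which 2 were above 0 in every library, ranged from 0.69 to 1114 TPM in tumors and 0.29 to 3926 TPM in peritumoral liver. With the pancreas marker level as a covariate, the counts of members called differed from those below in 1 comparison, tumors against nonDEN-L-WD. The part of the other cell types in the results below was not tested. In bulk tissue, fewer cells of a type and less RNA per cell cannot be told apart.

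Tumors were first compared with peritumoral liver of the same exposure, DEN-T-WD against DEN-PT-WD, to ask how the pathway genes stood inside and outside the tumor. *Dusp4*, *Etv4* and *Areg* were higher in tumors by 4.06-fold, 5.59-fold and 4.95-fold, and no member was lower. *Spry1*, *Spry2*, *Spred1*, *Etv5* and *Dusp6* rose by smaller amounts, between 1.41-fold and 1.90-fold. *Spry4* and *Egfr* did not pass the test. In edgeR's quasi-likelihood test with Benjamini-Hochberg adjustment, 3 of the 10 genes were called higher and 0 lower, against 4.81% and 3.09% of the 15625 genes tested. A gene was called when its adjusted p was 0.05 or less and its log2 fold change was 1 or more in size. Without the minimum fold change, 8 of the 10 passed higher and 0 lower, against 19.5% higher and 18.1% lower over all genes. The median log2 fold change of the 10 genes was 0.77, and that of all tested genes was 0.01. The same 3 and 8 counts came from DESeq2. P-values measure the spread between these samples, since the labels do not say which samples share a mouse.

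*Dusp4*, a nuclear phosphatase that inactivates ERK, separated tumors from every other group. It measured 0.81, 0.79 and 0.83 TPM in nonDEN-L-CD. Livers of nonDEN-L-WD measured 0.98, 1.14, 1.17 and 1.01 TPM, and those of DEN-L-CD 1.13, 1.07, 1.80 and 1.66 TPM. Across the 8 peritumoral samples the lowest, median and highest values were 1.32, 2.16 and 3.33 TPM, and across the 6 tumors 7.11, 9.48 and 13.02 TPM. The lowest tumor thus lay above the highest of all 19 other samples, and the peritumoral samples were all above the 7 untreated livers in TPM, but 7 of the 8 were in normalized counts. The mean was 9.82 ± 2.10 TPM (SD, n = 6) in tumors and 2.22 ± 0.731 TPM (SD, n = 8) in peritumoral liver, and the log2 fold change was 2.02 ± 0.19 (SE, edgeR adjusted p = 6.74e-08).

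*Dusp6*, the cytoplasmic ERK phosphatase, was more abundant but moved less. It measured 19.5, 16.4 and 12.8 TPM in nonDEN-L-CD and 29.8, 37.8, 34.7 and 15.9 TPM in nonDEN-L-WD. The DEN-L-CD livers measured 21.6, 20.6, 15.1 and 21.6 TPM. The lowest, median and highest values were 13.1, 37.97 and 46.0 TPM in peritumoral liver and 32.8, 70.7 and 71.8 TPM in tumors. Of the 6 tumors, 5 lay above every peritumoral sample, and replicate 5 lay among them. The log2 fold change was 0.66 ± 0.22 (SE, edgeR adjusted p = 0.0241). It did not pass without DEN-T-WD replicate 3 or replicate 4 (edgeR adjusted p = 0.0525 and 0.0556), and with both libraries that stood apart left out it was 0.67 (edgeR adjusted p = 0.000545).

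The Sprouty genes encode membrane-linked inhibitors of signaling from receptor tyrosine kinases to Ras. *Spry2* measured 0.42, 0.21 and 0.62 TPM in nonDEN-L-CD, 0.88, 0.83, 0.90 and 0.50 TPM in nonDEN-L-WD, and 0.76, 0.72, 0.62 and 0.85 TPM in DEN-L-CD. Its lowest, median and highest values were 1.00, 1.15 and 1.47 TPM in peritumoral liver and 1.31, 2.67 and 3.03 TPM in tumors. In TPM all 8 peritumoral samples, and in normalized counts 7 of them, lay above all 11 livers of the other groups, and 5 tumors lay above all 8 peritumoral samples. The tumor to peritumoral log2 fold change of *Spry2* was 0.93 ± 0.19 (SE, edgeR adjusted p = 0.000610), and it was 1.07 without DEN-T-WD replicate 5, past the minimum fold change.

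*Spry1* ran from 1.23 to 2.53 TPM over the 11 livers of the other 3 groups. The lowest, median and highest values were 2.33, 3.16 and 3.68 TPM in peritumoral liver and 3.11, 5.06 and 6.83 TPM in tumors, with 5 tumors above every peritumoral sample. Its log2 fold change was 0.55 ± 0.15 (SE, edgeR adjusted p = 0.00605). *Spry4* measured 3.80, 4.42 and 5.65 TPM as second lowest, median and highest of the peritumoral samples, of which replicate 7 was lowest at 2.09 TPM. In tumors its lowest, median and highest values were 1.87, 5.59 and 6.44 TPM, and 3 tumors lay above every peritumoral sample in TPM but 0 in normalized counts. For *Spry4* the log2 fold change was 0.14, with a 95% interval from -0.34 to 0.63 (edgeR adjusted p = 0.671), so an increase like that of *Spry1* lies within the interval. With both libraries that stood apart left out it was 0.22 (edgeR adjusted p = 0.256).

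*Spred1*, an inhibitor that brings neurofibromin to Ras, measured 4.69, 4.75 and 4.70 TPM in nonDEN-L-CD. The nonDEN-L-WD livers measured 5.34, 7.02, 5.04 and 3.77 TPM, and those of DEN-L-CD 4.56, 5.31, 5.37 and 5.16 TPM. Its lowest, median and highest values were 5.28, 7.66 and 8.55 TPM in peritumoral liver and 8.56, 12.1 and 12.97 TPM in tumors. Tumors and peritumoral samples did not overlap in TPM, although the lowest tumor and the highest peritumoral sample differed by 1 unit in the last digit given. In normalized counts they did overlap, since DEN-T-WD replicate 5, at 720.4, lay below 7 of the 8 peritumoral samples. The log2 fold change was 0.49 ± 0.11 (SE, edgeR adjusted p = 0.000842), short of the minimum fold change.

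Of the ETS factors, *Etv4* was low outside the DEN-T-WD group. It measured 0.13, 0.19 and 0.18 TPM in nonDEN-L-CD, 0.21, 0.29, 0.18 and 0.11 TPM in nonDEN-L-WD, and 0.20, 0.07, 0.32 and 0.28 TPM in DEN-L-CD. The lowest, median and highest values were 0.00, 0.235 and 0.40 TPM in peritumoral liver and 0.13, 1.35 and 1.75 TPM in tumors. The low levels rest on few reads, at most 19 expected counts in any sample of the other 4 groups and 6 to 75 in tumors. Of the tumors, 5 lay between 0.96 and 1.75 TPM, above every other sample, whereas replicate 5 at 0.13 TPM lay within the peritumoral range. For *Etv4* the log2 fold change was 2.48 ± 0.54 (SE, edgeR adjusted p = 0.000913), and 2.52 with both libraries that stood apart left out.

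*Etv5* was higher than *Etv4* in every group. It ran from 0.82 to 1.98 TPM over the 11 livers of the other 3 groups. The lowest, median and highest values were 1.5, 2.13 and 2.38 TPM in peritumoral liver and 2.79, 4.06 and 4.54 TPM in tumors, with no overlap between the latter groups. For *Etv5* the log2 fold change was 0.88 ± 0.13 (SE, edgeR adjusted p = 2.28e-05).

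*Areg*, the ligand, had 0 to 6 expected counts per library in nonDEN-L-CD, nonDEN-L-WD and DEN-L-CD. It measured 0.04, 0.00 and 0.09 TPM in nonDEN-L-CD, 0.04, 0.27, 0.09 and 0.19 TPM in nonDEN-L-WD, and 0.00, 0.15, 0.20 and 0.05 TPM in DEN-L-CD. Its lowest, median and highest values were 0.13, 0.45 and 0.92 TPM in peritumoral liver and 0.83, 2.96 and 4.09 TPM in tumors. All tumors but replicate 5 lay above every peritumoral sample, and replicate 5 lay above 7 of the 8. Its log2 fold change was 2.31 ± 0.41 (SE, edgeR adjusted p = 0.000140).

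*Egfr*, the receptor, showed another order of groups. It measured 185.6, 252.6 and 217.8 TPM in nonDEN-L-CD, 134.5, 169.4, 79.1 and 64.4 TPM in nonDEN-L-WD, and 107.7, 75.3, 78.1 and 109.7 TPM in DEN-L-CD. The lowest, median and highest values were 32.7, 91.6 and 215.5 TPM in peritumoral liver and 49.1, 82.0 and 120.3 TPM in tumors. The tumors lay inside the peritumoral range, which was the widest of the 5 groups. The tumor to peritumoral log2 fold change was -0.36 ± 0.36 (SE, edgeR adjusted p = 0.460), with a 95% interval from -1.12 to 0.39. The highest peritumoral value was that of replicate 7, and the log2 fold change was -0.04 with both libraries that stood apart left out.

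Tumors above all peritumoral samples in every library were found for 3 of the 10 genes in TPM, against 8.36% of all genes tested, and for 2 in normalized counts, against 4.29%. With both libraries that stood apart left out, the remaining 5 tumors lay above the remaining 7 peritumoral samples for 8 of the 10 genes, against 14.9% of all genes tested in TPM and 11.4% in normalized counts. DEN-T-WD replicate 5 was the lowest tumor for 9 of the 10 genes, all but *Egfr*, and the lowest tumor for 20.5% of all genes tested. Relative to the median of the other 5 tumors it had 0.0878 of the *Etv4* level, 0.261 of the *Areg* level and 0.327 of the *Spry4* level, but 0.713 of the *Dusp4* level. DEN-PT-WD replicate 7 was the lowest peritumoral sample for 5 of the 10 genes (6 in normalized counts) and the highest for *Egfr*, against 12.1% of all tested genes lowest and 20.1% highest in that library. With both left out, the tumor to peritumoral log2 fold changes not yet given were 2.05 for *Dusp4*, 2.35 for *Areg*, 1.09 for *Spry2*, 0.93 for *Etv5*, 0.69 for *Spry1* and 0.52 for *Spred1*.

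**Figure D2:**
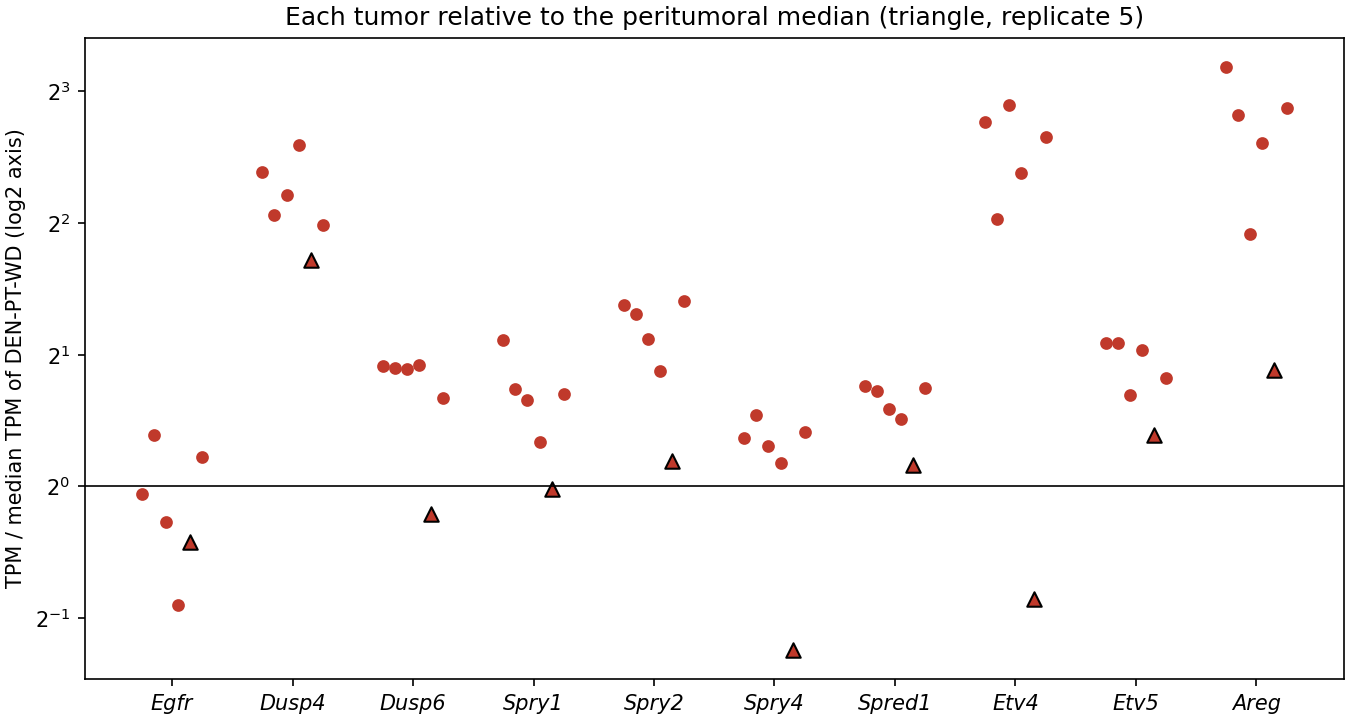
TPM of each of the 6 tumors divided by the median TPM of the 8 peritumoral samples, on a log2 vertical axis, for the 10 genes. The triangle marks DEN-T-WD replicate 5, which is the lowest tumor for 9 genes and lies at or below the peritumoral median for Egfr, Dusp6, Spry1, Spry4 and Etv4.

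Tumors were next set against the 3 groups of whole liver. These comparisons share the tumor samples with each other and with the comparison above, so they are not independent of it. Tumor and DEN cannot be told apart against nonDEN-L-WD, nor tumor and diet against DEN-L-CD, nor any of the 3 against nonDEN-L-CD. Against nonDEN-L-WD, 6 of the 10 genes were called higher and 0 lower, against 10.4% and 5.24% of all genes tested. They were *Dusp4* (log2 fold change 2.84), *Etv4* (3.68), *Areg* (3.74), *Spry2* (1.32), *Etv5* (1.18) and *Spry1* (1.01), of which *Spry1* fell to 0.91 and lost its call without DEN-T-WD replicate 1. Its call was also lost, at 0.91 to 1.00, without nonDEN-L-WD replicate 2 or 4 or DEN-T-WD replicate 2, 3 or 6. *Dusp6* and *Spred1* passed the adjusted p below the minimum fold change, and the adjusted p of *Dusp6* rose to 0.0501 without nonDEN-L-WD replicate 1 and to 0.0950 without replicate 4. With the pancreas marker level as a covariate, *Spry1* was at 0.99 and so not called, and the adjusted p of *Dusp6* was 0.0524. With no filter on low counts *Spry1* was at 0.997 and not called either.

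Against DEN-L-CD, 6 of the 10 genes were called higher and 0 lower, against 9.68% and 4.58% of all genes tested. *Areg* had a log2 fold change of 4.29, *Etv4* 3.23, *Dusp4* 2.37, *Spry2* 1.30, *Etv5* 1.27 and *Dusp6* 1.25. *Spry4* did not pass (0.55, edgeR adjusted p = 0.120), but did so without DEN-T-WD replicate 5 (0.73, edgeR adjusted p = 0.00955).

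Against nonDEN-L-CD, 8 of the 10 genes were called higher and 1 lower, against 14.5% and 5.82% of all genes tested. *Egfr* was the gene that fell, by 1.99 ± 0.45 on the log2 scale (SE, edgeR adjusted p = 0.000722), or 3.99-fold. Its 6 tumor values, up to 120.3 TPM, lay below the 3 untreated values, from 185.6 TPM. *Spred1* was the gene outside both calls, with a log2 fold change of 0.82 that passed the adjusted p alone. *Spry4* was called here (1.13, edgeR adjusted p = 0.00580) but not without nonDEN-L-CD replicate 2 (0.85, edgeR adjusted p = 0.0558). *Areg* had 3 expected counts over the 3 nonDEN-L-CD libraries and 312 over the 6 tumors, a depth-corrected ratio of 40.4 with an exact 95% interval from 13.7 to 197 that covers counting error only.

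**Figure D3:**
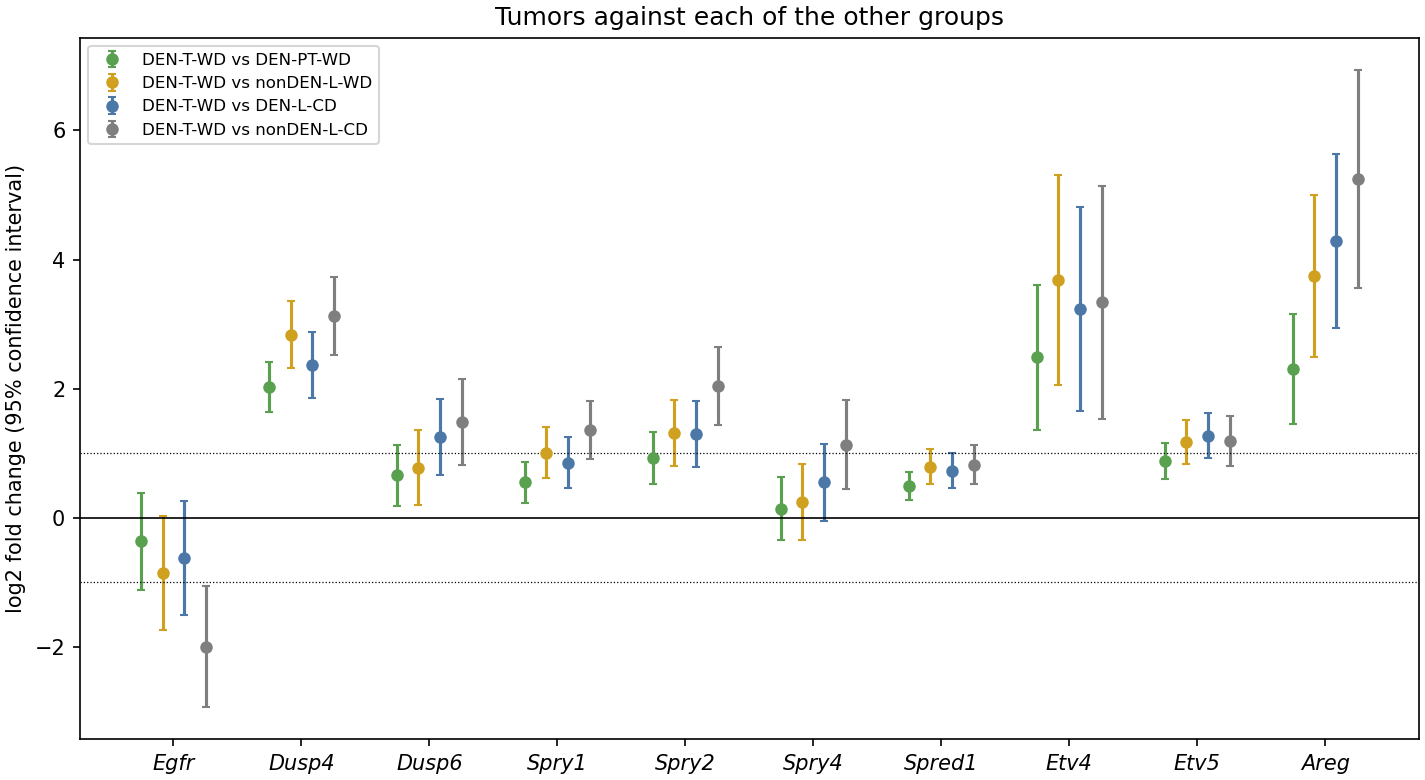
Log2 fold changes of the 10 genes in tumors against each of the other 4 groups, from 1 edgeR fit, with 95% confidence intervals. Dotted lines mark log2 fold changes of 1 and -1. Dusp4, Etv4 and Areg lie above 1 in all 4 comparisons, and Egfr lies below 0 in all 4 but passes the test in this fit only against nonDEN-L-CD. The Areg value against nonDEN-L-CD rests on 3 expected counts in that group and depends on the fit.

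The other comparisons leave out the DEN-T-WD group and ask whether DEN or diet moved the genes. Peritumoral liver lies beside resected tumors, so DEN and nearness to a tumor cannot be told apart where it is set against untreated liver. It was compared with untreated liver on the same diet, DEN-PT-WD against nonDEN-L-WD. *Dusp4* was 1.76-fold higher there, at 2.22 against 1.08 TPM on average, with a log2 fold change of 0.81 ± 0.23 (SE, edgeR adjusted p = 0.0248). It was the single gene of the 10 to pass the adjusted p, against 12.4% of all genes tested, and it did not reach the minimum fold change. Its adjusted p rose to 0.0764, 0.0531 and 0.0615 without nonDEN-L-WD replicate 1, 2 and 4. *Spred1* passed without nonDEN-L-WD replicate 2 (0.42, edgeR adjusted p = 0.0379) or DEN-PT-WD replicate 7 (0.37, edgeR adjusted p = 0.0282). With the minimum fold change 0 of the 10 were called by edgeR and 0 by DESeq2, against 2.76% of all genes tested, and 4 of the 10 had an unadjusted p under 0.05, against 29.6% of all genes. With both libraries that stood apart left out, *Dusp4*, *Spred1* and *Areg* passed the adjusted p (edgeR adjusted p = 0.00801, 0.00205 and 0.0302), or 3 of the 10 against 18.1% of all genes tested. Median sums of endothelial, macrophage, stellate cell and T cell markers were also higher in peritumoral liver than in nonDEN-L-WD, and their part in these differences was not tested.

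Within DEN-injected mice, DEN-PT-WD against DEN-L-CD differs in diet, and also sets tissue beside resected tumors against whole liver that may hold small tumors, which cannot be told apart. In edgeR, 0 of the 10 genes were called, against 1.90% of all genes tested, 3 of the 10 had an unadjusted p under 0.05, against 27.3%, and DESeq2 called 1. *Areg* was nearest, at 0.480 against 0.1 TPM on average and a log2 fold change of 1.98 ± 0.65 (SE, edgeR adjusted p = 0.0515). It was called without DEN-PT-WD replicate 6 or replicate 7 (edgeR adjusted p = 0.04998 and 0.0285) and by DESeq2 (adjusted p = 0.0272). *Dusp6* passed the adjusted p without DEN-PT-WD replicate 7 (0.72, edgeR adjusted p = 0.0279). With both libraries that stood apart left out, 5 of the 10 passed higher and 0 lower, against 17.3% of all genes tested in either direction. They were *Dusp6*, *Spred1*, *Areg*, *Etv5* and *Spry4* (edgeR adjusted p = 0.00466, 0.00661, 0.0116, 0.0259 and 0.0401).

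DEN was compared on the control diet, DEN-L-CD against nonDEN-L-CD. In edgeR, 0 of the 10 genes were called, against 4.70% of all genes tested, 4 of the 10 had an unadjusted p under 0.05, against 34.4%, and DESeq2 called 1. *Egfr* averaged 92.7 ± 18.5 TPM (SD, n = 4) against 219 ± 33.5 TPM (SD, n = 3), and its ranges did not overlap. The log2 fold change of -1.38 ± 0.50 (SE) had an edgeR adjusted p of 0.0535, and it was the gene called by DESeq2 (adjusted p = 0.0341). *Spry2* was called without nonDEN-L-CD replicate 3, with a log2 fold change of 1.15 (edgeR adjusted p = 0.0246) in place of 0.75. With the pancreas marker level as a covariate, *Dusp4* passed the adjusted p (0.81, edgeR adjusted p = 0.0360).

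The western diet alone was compared in untreated mice, nonDEN-L-WD against nonDEN-L-CD. In edgeR, 0 of the 10 genes were called and DESeq2 called 0, against 5.28% of all genes tested, and 4 of the 10 had an unadjusted p under 0.05, against 35.8%. *Egfr* averaged 112 ± 48.8 TPM (SD, n = 4) against 219 ± 33.5 TPM (SD, n = 3), again without overlap, with a log2 fold change of -1.14 ± 0.50 (SE, edgeR adjusted p = 0.103). *Spry2* was called without nonDEN-L-CD replicate 3 (1.13, edgeR adjusted p = 0.0257, in place of 0.73). These comparisons share the nonDEN-L-CD samples.

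Whether DEN acted differently under the 2 diets was tested as the interaction of DEN with diet, the peritumoral samples standing for DEN-injected liver on the western diet. In edgeR 0 of the 10 genes were called, against 2.75% of all genes tested, 0 had an unadjusted p under 0.05, against 24.1%, and DESeq2 called 0. The interval for *Egfr* ran from -0.46 to 2.24 on the log2 scale.

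The other genes of the pathway were read from a list of 44 ligands, receptors, cascade components, brakes and targets, of which 42 were tested. In DEN-T-WD against DEN-PT-WD, 5 of the 42 were called higher and 0 lower, against the 4.81% and 3.09% of all genes given above. Without the minimum fold change 11 passed higher and 3 lower, against 19.5% and 18.1%. Their median log2 fold change was 0.09. Of the 5 ligands tested, 3 passed higher. *Btc*, for betacellulin, averaged 9.08 ± 0.836 TPM in tumors against 3.36 ± 1.08 TPM, with a log2 fold change of 1.30 (edgeR adjusted p = 1.76e-05). *Hbegf*, the heparin-binding ligand, had a log2 fold change of 1.12 (edgeR adjusted p = 0.000575). Of the 4 other receptors, 0 passed in edgeR.

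Of the 11 brakes tested, 4 passed higher and 1 lower, beside the same 19.5% and 18.1% of all genes. *Dusp5*, a nuclear ERK phosphatase, averaged 10.5 ± 4.63 TPM in tumors against 2.97 ± 1.81 TPM, with a log2 fold change of 1.71 (edgeR adjusted p = 0.00117). *Dusp9* was lower in level, at 0.382 against 0.0950 TPM on average, with a log2 fold change of 1.83 (edgeR adjusted p = 0.00960). The brake that fell was *Errfi1*, an EGFR inhibitor, by 0.39 on the log2 scale (edgeR adjusted p = 0.0232), named after its value was seen. Of the 7 targets 1 passed higher, *Ccnd1* for cyclin D1, at 56.4 ± 18.6 TPM against 20.5 ± 8.68 TPM and a log2 fold change of 1.36 (edgeR adjusted p = 0.000181).

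Of the 15 cascade genes, 3 passed higher and 2 lower, beside 19.5% and 18.1% of all genes, and 0 of the 15 reached the minimum fold change. Their median log2 fold change was 0.07, and that of the 11 brakes was 0.35, a difference that was not tested.

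**Figure D4:**
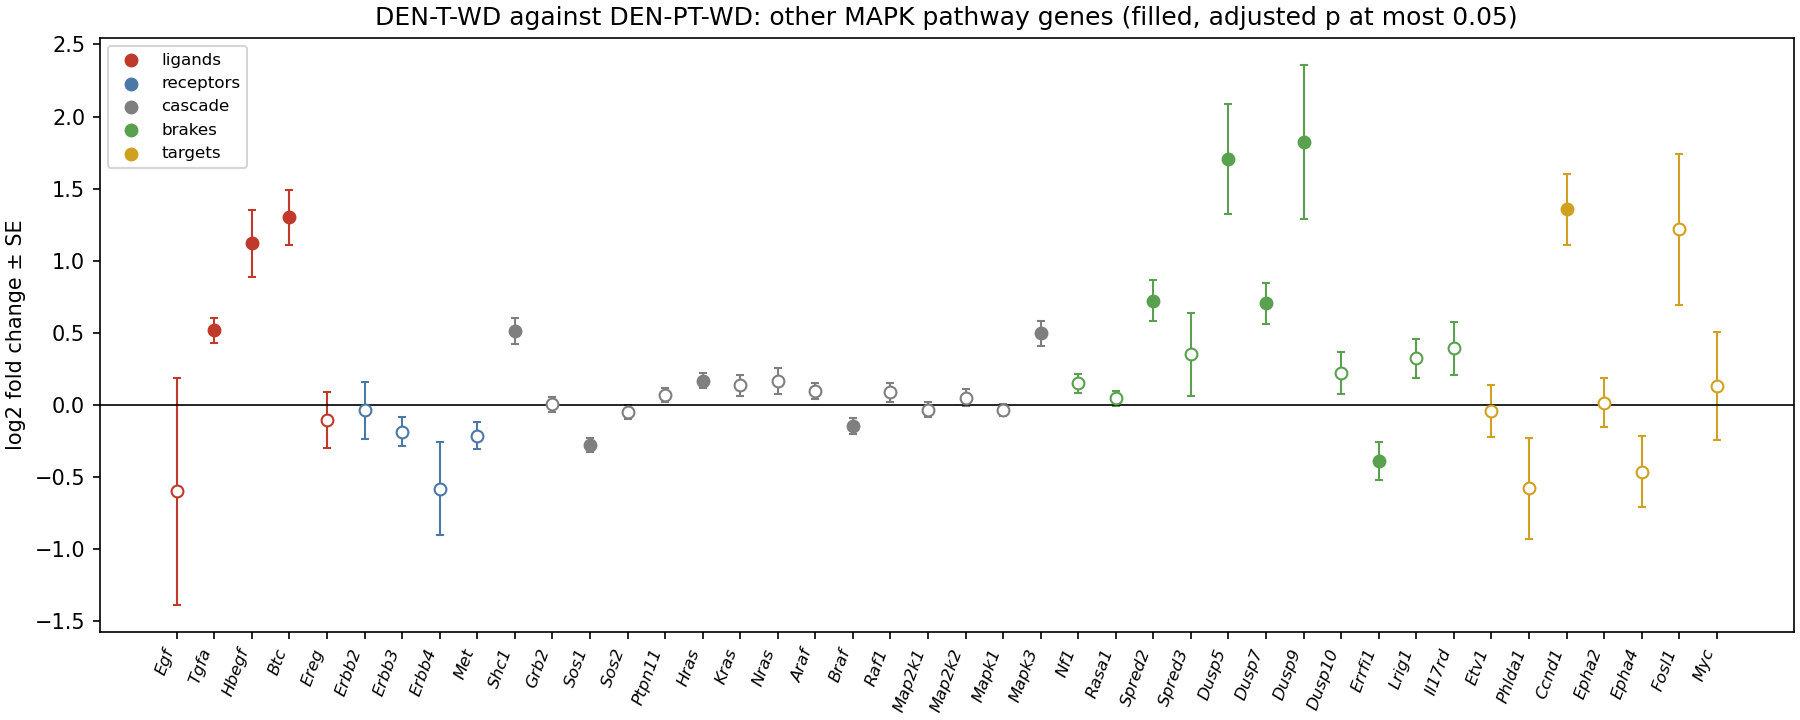
Log2 fold changes with SE, DEN-T-WD against DEN-PT-WD, of the 42 tested pathway genes by role. Filled points passed an adjusted p of 0.05. Dusp5, Dusp9, Ccnd1, Btc and Hbegf lie above 1 and passed, Fosl1 lies at 1.22 and did not pass, and the 15 cascade genes lie between -0.28 and 0.51.

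As a description over all 25 samples, which share tissue and exposure differences, the pair of members with the most similar ranks was *Spry1* and *Spry2* (Spearman's rho 0.91). *Egfr* was negatively related to each of the other 9 genes, down to -0.61 for *Areg*. Of all genes tested, those whose pattern was most like *Dusp4* were *Drc1* (0.97), *Rell1* (0.97) and *Cacna1b* (0.96). Those most like *Areg* were *Tspan15*, *Zfp532* and *Actn1* (0.92, 0.92 and 0.91), and those most like *Etv4* were *Loxl4*, *Smyd5* and *Txndc12* (0.88, 0.87 and 0.85).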

How the data were processed

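RNA was extracted from frozen tissue and sequenced as 1 library per sample. The authors checked reads with FastQC, aligned them to GRCm38 with STAR and deposited RSEM expected counts, which are not normalized, and TPM values, which are corrected for transcript length and library size. Versions of STAR and RSEM and the annotation release are not given in the sources used here. The authors' FPKM values were not used. Gene symbols were matched for 48349 of 48795 identifiers (99.1%), and coordinates are those of GENCODE M21.

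Expected counts were rounded, and edgeR 4.0.16 in R 4.3.3 (TMM, filterByExpr by group, minimum count 10, quasi-likelihood test, 1 fit over 25 samples, Benjamini-Hochberg over 15625 genes) gave the tests. A gene was called when its adjusted p was 0.05 or less and its log2 fold change was 1 or more in size, the thresholds of the study's methods, which name DESeq2. On simulated data of the comparison of tumors with peritumoral liver, drawn for 15305 genes with 200 changed, the test recovered 198, with 2 other genes called. The changed genes lay above a minimum mean level and were shifted by large folds only, with no library made to stand apart. The recovery therefore says nothing of low-count genes or of small fold changes. DESeq2 1.42.0 (Wald test or size factors), no filter, only the groups compared, a replicate block and each replicate left out were the alternatives. Omitting both libraries that stood apart, a pancreas marker covariate, normalized counts for the positions of libraries, and the samples of the replicate block fitted without the block were added after the data were seen. No batch is given in the labels. Replicate pairs differed beyond counting noise in all 58 pairs, and none was merged.

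The 10 genes, the pathway list and the marker lists were chosen with earlier results of these data known. All 10 genes are named, as are pathway genes called in DEN-T-WD against DEN-PT-WD and the 3 genes most like each called member (Spearman, log2 CPM). Figures used Matplotlib 3.10.9.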

Additional observations from a re-analysis of the deposited data

Results flagged for a closer look

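Of 40 groups of 4 to 8 samples in which a member's TPM was examined, 4 held a library far from the others, and chance alone gives about 1 in 20. *Dusp6* was low in 3 of them. In DEN-T-WD, replicate 5 measured 32.84 TPM, against 60.4 TPM in the next lowest tumor. In DEN-PT-WD, replicate 7 measured 13.11 TPM, against 33.5 TPM in the next lowest sample. In DEN-L-CD, replicate 3 measured 15.08 TPM, against 20.6 TPM in the next lowest sample. *Spry4* was low in DEN-T-WD replicate 5 at 1.87 TPM, against 5.01 TPM in the next lowest tumor.

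The same pair of libraries, DEN-T-WD replicate 5 and DEN-PT-WD replicate 7, had the lowest summed hepatocyte markers of their groups. Whether the 2 measures are linked was not tested.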

How the results depend on the processing

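Without the minimum fold change the genes called in DEN-T-WD against DEN-PT-WD numbered 8 in place of 3, and in DEN-PT-WD against nonDEN-L-WD 1 in place of 0. Omitting both libraries that stood apart gave 1 in DEN-PT-WD against nonDEN-L-WD and 1 in DEN-PT-WD against DEN-L-CD, *Areg* in both. DESeq2's Wald test gave 1 in DEN-PT-WD against DEN-L-CD (*Areg*) and 1 in DEN-L-CD against nonDEN-L-CD (*Egfr*), where fits of only the groups compared, of the replicate block and of the samples with shared replicate numbers also gave 1, *Egfr*. Whether samples with the same replicate number share a mouse is not given in the labels. Over the 6 pairs of DEN-T-WD and DEN-PT-WD, correlations of deviations ran from -0.23 to 0.34. These cannot decide it, since the deviation of a library need not come from its mouse. The replicate block can use only samples of the groups compared that share a number, so these samples were also fitted without it. In DEN-T-WD against DEN-PT-WD that fit gave *Egfr* 0.033, *Spry4* 0.024 and *Dusp6* an edgeR adjusted p of 0.0598, and the block gave 0.21, -0.049 and an adjusted p of 0.112. *Spry1* passed in the former (edgeR adjusted p = 0.0383) and not with the block (0.0515). In DEN-PT-WD against nonDEN-L-WD the former gave 1 called member, *Dusp4* (1.03), and the block 0. Over all genes, the block called 166 higher and 21 lower there, against 328 and 43 in the same samples without it, and 164 and 134 in DEN-L-CD against nonDEN-L-CD, against 371 and 286. It moved the number called by less than 1.5 times in the other 7 comparisons, all of which it left with the same number of called members as the same samples without it.

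Some members passed the adjusted p only in an alternative. In nonDEN-L-WD against nonDEN-L-CD, *Spry4* passed with DESeq2, with only the groups compared and with the block (adjusted p = 0.0444, 0.0391 and 0.0307), and *Egfr* and *Dusp6* with the block (edgeR adjusted p = 0.0443 and 0.0297). In tumors against nonDEN-L-WD, *Spry4* passed with both libraries that stood apart left out (edgeR adjusted p = 0.0465) and with the block (0.0212), and *Egfr*, lower in tumors, with only the groups compared (-0.85, edgeR adjusted p = 0.0465) and with the block (-0.77, 0.00635). With the block *Spry4* also passed in tumors against DEN-L-CD (edgeR adjusted p = 0.0129), and *Dusp6* and *Spred1* in peritumoral liver against DEN-L-CD (0.0347 and 0.0258). The same samples without the block also gave the passes seen with it, except those of *Egfr* against nonDEN-L-WD and of *Egfr* and *Spry4* in nonDEN-L-WD against nonDEN-L-CD. They added *Spry1* and *Spred1* in DEN-PT-WD against nonDEN-L-WD (edgeR adjusted p = 0.0472 and 0.0457). In DEN-L-CD against nonDEN-L-CD, *Dusp4* passed with only the groups compared (edgeR adjusted p = 0.0411). *Dusp6* in DEN-T-WD against DEN-PT-WD had an edgeR adjusted p of 0.0502 with only the groups compared. The cause of these changes was not tested.

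With each library left out in turn, 3 to 4 genes were called in DEN-T-WD against DEN-PT-WD, 5 to 6 against nonDEN-L-WD, 8 to 9 against nonDEN-L-CD, and 0 to 1 in DEN-PT-WD against DEN-L-CD, as in DEN-L-CD and in nonDEN-L-WD when each was set against nonDEN-L-CD. Log2 fold changes that changed sign, none past the threshold, were *Dusp6* in DEN-PT-WD against nonDEN-L-WD (-0.045 to 0.25), *Etv4* and *Etv5* in DEN-L-CD against nonDEN-L-CD (-0.30 to 0.40 and -0.19 to 0.043), and *Spred1* and *Etv5* in nonDEN-L-WD against nonDEN-L-CD (-0.093 to 0.087 and -0.075 to 0.077). DESeq2's size factors moved the median of all genes by at most 0.017 and kept every count of called members within 1.5 times. Depth limits *Etv4* and *Areg* outside the DEN-T-WD group, where libraries held 0 to 19 expected counts.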

Other observations

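In DEN-L-CD and nonDEN-L-WD, other genes of the pathway list differed from liver of untreated mice on the control diet. In DEN-L-CD, *Myc*, *Erbb4* and *Btc* were called higher and *Epha2* lower in edgeR, or 3 higher and 1 lower of the 42 tested, against 4.70% of all genes in either direction. In nonDEN-L-WD 3 of the 42 were called, against 5.28% of all genes. *Myc* measured 4.11, 15.3, 20.5 and 4.52 TPM in DEN-L-CD against 1.59, 1.27 and 2.75 TPM in nonDEN-L-CD, with a log2 fold change of 2.53 (edgeR adjusted p = 0.00393). *Btc* was also called higher in nonDEN-L-WD, by 1.27 on the log2 scale (edgeR adjusted p = 0.00530). *Erbb4* was called higher there as well, by 2.32 (edgeR adjusted p = 0.00256). The EGF gene itself, *Egf*, was called higher in nonDEN-L-WD against nonDEN-L-CD, but a single library, replicate 1, measured 16.5 TPM there and the other 3 measured 0.26 to 0.30 TPM. These genes were named after their values were seen.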
